A study of Mus musculus with 14 samples.

Results

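The genes described here are 33 genes of fatty acid oxidation and ketogenesis, taken as a named list of enzymes, transporters and PPARA-responsive genes, out of 25112 genes with an estimated count in at least 1 library. The list was chosen with earlier results of these data known, so its shares beside those of all genes are descriptive. All 33 passed the filter on low counts and were among the 13127 genes tested. They were measured by RNA sequencing in whole liver of mice on a high-fat diet, in 14 libraries. The transplant group (n = 6, titled iBAT 2x) had been given silk scaffolds seeded with pre-adipocytes that came out of the stromal fraction of brown fat and had been differentiated. The empty scaffold group (n = 8, titled Sham-WT) had been given scaffolds without cells and serves as the control, and the diet and silk scaffolds are described for the series as a whole. Strain, sex, age, time on the diet, feeding state at collection and the meaning of 2x were not stated in the labels. Nor do the labels say that each sample is a separate animal, and p-values then measure only sample-to-sample spread, which may be technical. Libraries held 19482580 to 28910968 estimated counts. Below, a level is in CPM with its SD over the 6 transplant or 8 empty scaffold libraries, a log2 fold change is transplant minus empty scaffold with its SE, and its adjusted p is from edgeR's quasi-likelihood test.

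Fatty acids that enter a hepatocyte are bound by a fatty acid binding protein and activated to acyl-CoA. Carnitine palmitoyltransferase and the carnitine carrier bring them into the mitochondrion, where a repeating spiral of dehydrogenation, hydration, a further dehydrogenation and thiolysis shortens them to acetyl-CoA. Peroxisomes shorten very long and dicarboxylic acids, thioesterases return acyl-CoA to free acid, and in the fasted liver much of the acetyl-CoA leaves as ketone bodies. The nuclear receptor PPARA, bound to DNA together with RXR at direct repeats spaced by a single base, drives many of these genes.

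Promoter windows from RefSeq (GRCm38.p6, 250 bases before to 50 bases after an annotated start) were found for 27 of the 33 genes. Acaa2, Acat1, Cpt1b, Decr1, Slc16a6 and Vnn1 had no entry. The windows were searched on both strands for AGGTCANAGGTCA, the textbook PPAR element, and for the looser AGGNCANAGGNCA, which contains it. The strict form was in 0 of the 29 windows of these genes and in 13 of all 32851 windows (0.0396%). The looser form was in 1 of the 29 windows and in 125 of all windows (0.381%). The match was in Fabp1, on the minus strand with its first base 67 bases before the start. A match is a stretch of letters in a window and says nothing of binding. The Fabp1 window is shown with the match in capitals, and that of Slc25a20, the gene among the 33 whose call held in the most fits, is shown as an example with no match.
Fabp1, chr6:71199629-71199928, plus strand: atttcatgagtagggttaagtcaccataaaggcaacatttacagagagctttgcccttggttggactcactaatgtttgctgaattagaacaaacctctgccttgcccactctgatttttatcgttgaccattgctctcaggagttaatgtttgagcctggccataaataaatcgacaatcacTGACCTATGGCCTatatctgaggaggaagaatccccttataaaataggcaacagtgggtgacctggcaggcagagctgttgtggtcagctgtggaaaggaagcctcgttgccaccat
Slc25a20, chr9:108661886-108662185, plus strand: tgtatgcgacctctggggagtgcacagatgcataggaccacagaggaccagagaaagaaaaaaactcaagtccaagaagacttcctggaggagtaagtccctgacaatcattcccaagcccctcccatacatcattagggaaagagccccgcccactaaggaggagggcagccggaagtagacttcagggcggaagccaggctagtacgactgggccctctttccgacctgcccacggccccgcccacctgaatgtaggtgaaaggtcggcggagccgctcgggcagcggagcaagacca

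In livers of transplant recipients 3 of the 33 genes rose, at an adjusted p under 0.05, and none fell. They were Slc25a20, the mitochondrial carnitine carrier, Slc27a2, a fatty acid transporter and very long chain acyl-CoA synthetase, and Acot1, a cytosolic acyl-CoA thioesterase. Those 3 genes are 9.09% of the list, against 3.31% of all 13127 tested genes called higher, while 4.23% of all tested genes were called lower and 7.54% in either direction. At an unadjusted p under 0.05, 12 of the 33 were higher (36.4%) and 1 was lower, against 14.6% and 15.4% of all tested genes. DESeq2 called 10 of the 33 higher and 0 lower, against 1032 and 933 of all 13127 genes, and added Acadm, Hadhb, Hadh, Decr1, Eci1, Acaa1a and Acat1 to those named. Of the 33 log2 fold changes 23 were above 0, from -0.54 (Slc16a6) to 0.92 (Acot1), with a median of 0.17 beside a median of -0.02 over all tested genes. In whole liver, fewer cells of a type and less RNA per cell cannot be told apart.

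These directions depend on how libraries are put on a common scale. Levels are given as CPM scaled by TMM, which sets most genes to no change between libraries. Scaling by the total count alone moved the median log2 fold change of all tested genes from -0.02 to -0.25 and that of the 33 genes from 0.17 to -0.05, so that the median of the 33 lay above that of all genes on both scales. With total-count scaling 13 of the 33 were above 0, none was called higher, and Cpt1a and Slc16a6 were called lower. On the deposited TPM, 31 of the 33 had a lower mean in the transplant group, as had 12202 of all 13127 tested genes. Transcripts of the major urinary protein (Mup) genes took 3.58% to 8.69% of the counts in transplant libraries and 1.84% to 4.39% in empty scaffold libraries. Their part in the shift was not tested beyond a fit that left them out before total-count scaling. In that fit the median log2 fold change was -0.21 over all tested genes and -0.0048 over the 33 genes. Of the 33, 1 was called higher and 1 lower. A statement below that a gene rose is therefore relative to most genes of the same library.

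**Figure D1:**
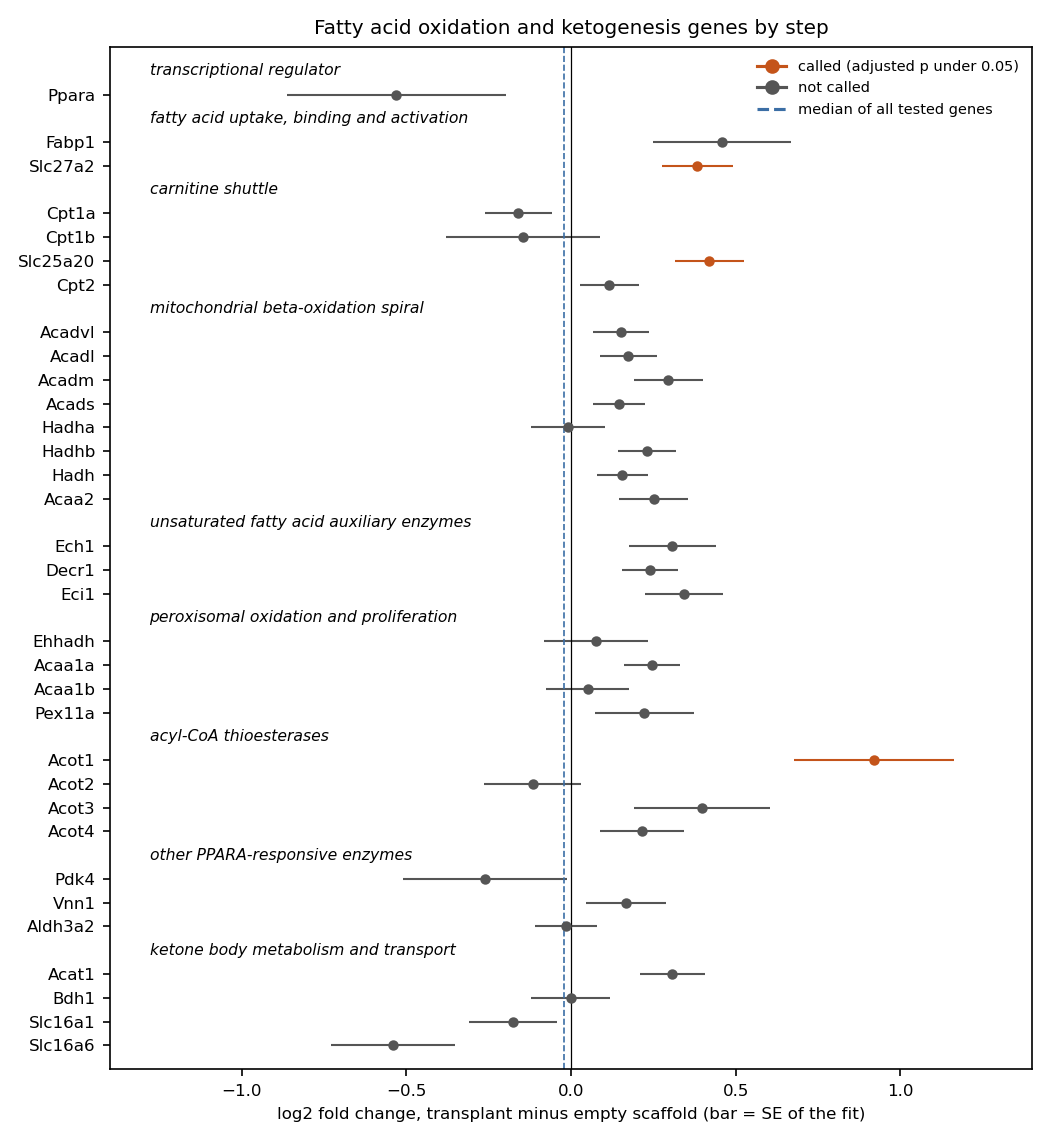
Log2 fold change of each of the 33 genes, transplant minus empty scaffold (points, bars are the SE of the fit), ordered by pathway step, with called genes in orange and the median of all tested genes as a dashed line. Slc27a2, Slc25a20 and Acot1 are the called genes, and the auxiliary and spiral enzymes lie to the right of the dashed line without being called.

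**Figure D2:**
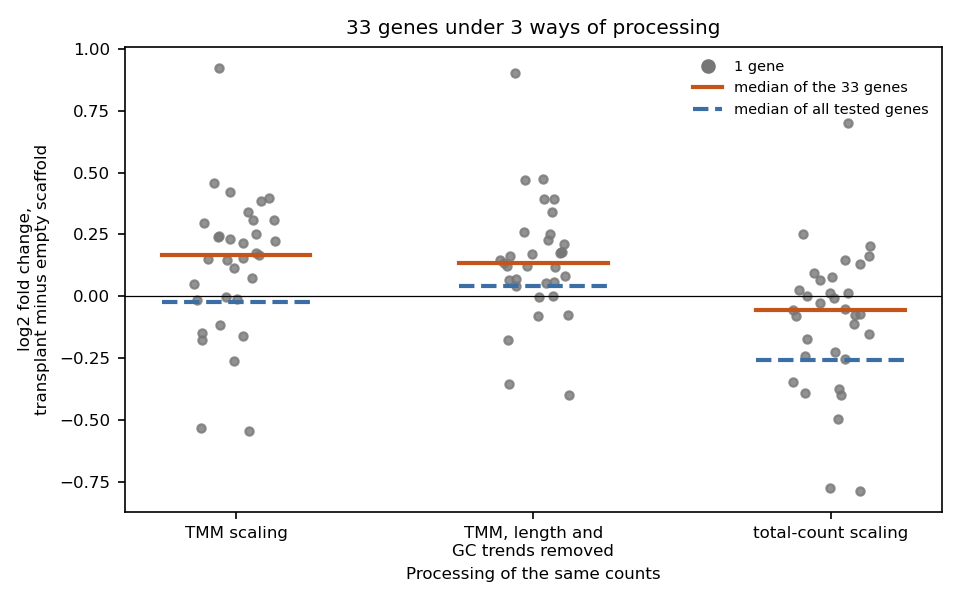
Log2 fold changes of the 33 genes (grey points) under TMM scaling, TMM with length and GC trends removed, and total-count scaling, with the median of the 33 genes (orange) and of all tested genes (dashed blue). The orange line lies above the blue one in all 3 columns, and total-count scaling puts both below 0.

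Uptake, binding and activation were described by Fabp1, the abundant liver fatty acid binding protein, and Slc27a2. Slc27a2 (ENSMUSG00000027359) had a lowest, median and highest level of 1778, 1970 and 2349 CPM in transplant libraries and of 1387, 1552 and 1980 CPM in empty scaffold libraries. All 6 transplant libraries lay above the empty scaffold median, and 7 of 8 empty scaffold libraries lay below every transplant library. The overlap came from empty scaffold replicate 7, the library at 1980 CPM. Its log2 fold change was 0.38 ± 0.11 (adjusted p = 0.0422), and leaving out each library in turn kept the call in 3 of 14 fits, with adjusted p from 0.0174 to 0.103. The gene's reads fell on a long and a short coding transcript in fixed shares, 57.8% ± 1.69 (SD) in transplant and 58.0% ± 2.24 (SD) in empty scaffold libraries for the long one. Fabp1 (ENSMUSG00000054422) was by far the most abundant of the 33 per length, with a mean of 16500 TPM over 14 libraries against 1231 TPM for the next, Acaa1b. Fabp1 ran from 3926 over a median of 5554 to 6599 CPM in transplant libraries and from 2651 over 3382 to 5884 CPM in empty scaffold libraries. All 6 transplant libraries exceeded the empty scaffold median and 3 exceeded every empty scaffold library. Its log2 fold change of 0.46 ± 0.21 did not pass (adjusted p = 0.154), and once length and GC trends were taken out it was 0.07.

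In the carnitine shuttle edgeR called the carrier gene higher and did not call the transferase genes. Whether their log2 fold changes differ was not tested. Slc25a20 (ENSMUSG00000032602), which exchanges acylcarnitine for carnitine across the inner membrane, ran from 240.7 over a median of 252.7 to 294 CPM in transplant libraries and from 158.3 over 185.1 to 252.4 CPM in empty scaffold libraries. The transplant libraries were close together, and 7 of 8 empty scaffold libraries lay below all of them. Empty scaffold replicate 7 was again the exception. The log2 fold change was 0.42 ± 0.11 (adjusted p = 0.0321). Leaving out each library in turn kept the call in 8 of 14 fits, with the log2 fold change between 0.38 and 0.48, and in the fit that removes trends with transcript length and GC content (0.34, adjusted p = 0.0396). It did not hold with total-count scaling (0.20, adjusted p = 0.0751).

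Cpt1a, the malonyl-CoA sensitive transferase of the outer membrane and the liver isoform, ran from 364 over 460.5 to 483.8 CPM in transplant libraries and from 385.4 over 509 to 555.1 CPM in empty scaffold libraries. No transplant library reached the empty scaffold median, but the ranges overlapped and the log2 fold change of -0.16 ± 0.10 did not pass (adjusted p = 0.294). With total-count scaling Cpt1a was called lower (-0.40, adjusted p = 0.0376), while the length and GC fit put it at 0.07. Cpt2, the transferase of the inner membrane, stood at 0.12 ± 0.09. Cpt1b, the muscle and brown fat isoform, was low, at 7.22 ± 1.87 against 7.998 ± 2.76 CPM. The ratio of Slc25a20 to Cpt1a within a library does not depend on scaling, and was chosen after its values were seen, so it carries no test. It is not free of trends with transcript length, at 1784 bases for Slc25a20 and 4310 for Cpt1a. In the length and GC fit their log2 fold changes were 0.34 and 0.07, against 0.42 and -0.16 in the main fit. The ratio ran from 0.498 over 0.549 to 0.808 in transplant libraries and from 0.285 over 0.378 to 0.521 in empty scaffold libraries, with 4 of 6 transplant libraries above every empty scaffold library.

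**Figure D3:**
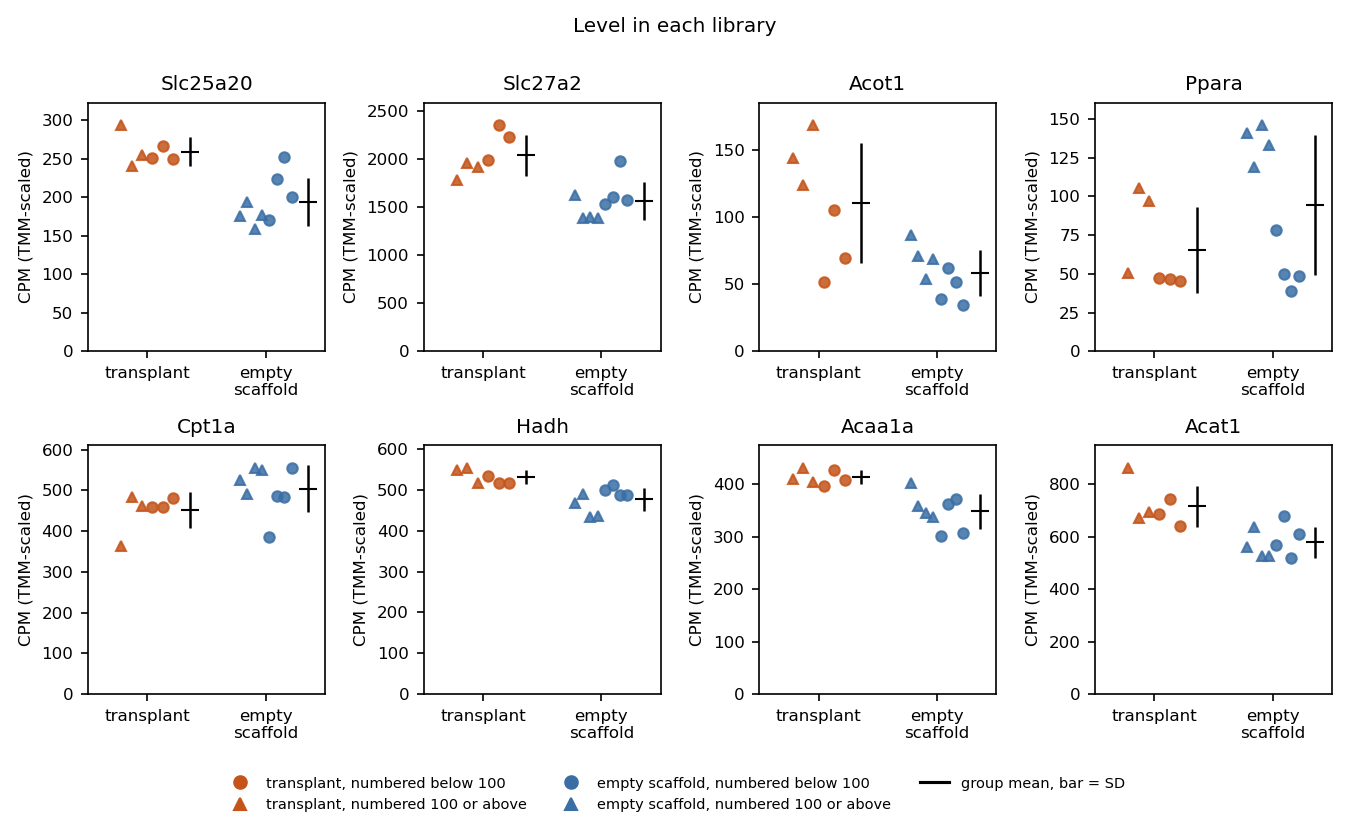
Level of 8 genes in each library (CPM, TMM-scaled, axes from 0), with transplant in orange, empty scaffold in blue, circles for samples numbered below 100, triangles for 100 or above, and black marks for mean and SD. Hadh is the panel with no overlap between groups, and Ppara and Acot1 show the triangles mostly above the circles.

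The mitochondrial spiral had 8 genes, none of which was called by edgeR, while 7 had positive values and DESeq2 called Acadm, Hadhb and Hadh higher. The chain-length specific acyl-CoA dehydrogenases stood at log2 fold changes of 0.15 ± 0.08 (Acadvl, very long chain), 0.17 ± 0.09 (Acadl, long chain), 0.30 ± 0.10 (Acadm, medium chain) and 0.15 ± 0.08 (Acads, short chain). Acadm had the smallest adjusted p of the spiral (0.079), with 4 of 6 transplant libraries above every empty scaffold library. Sample titles carry numbers below or above 100, and Acadm was called higher when that range entered the model (0.0392) and not in the length and GC fit (0.152). With that range in the model, 1388 of all 13127 tested genes were called higher, against 435 without it. Hadh, the short-chain hydroxyacyl-CoA dehydrogenase, was the gene whose groups did not overlap. It ran from 516.9 to 554.6 CPM in transplant libraries (mean 532 ± 17.1) and from 434.4 to 512.6 CPM in empty scaffold libraries (477 ± 28.6). Of all tested genes 0.571% had every transplant library above every empty scaffold library, 0.701% had the reverse, and 1 of 33 is 3.03%. The difference in Hadh was small, at 0.16 ± 0.08, and did not pass (adjusted p = 0.187). Acaa2, the mitochondrial thiolase, stood at 0.25 ± 0.10 (adjusted p = 0.12).

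Hadha and Hadhb encode the alpha and beta subunits of the mitochondrial trifunctional protein, and in the RefSeq table their windows point away from each other and share 228 bases. The Hadhb window is shown with the shared stretch, chr5:30155003-30155230, in capitals, because both genes of this divergent pair are members.
Hadhb, chr5:30155003-30155302, plus strand: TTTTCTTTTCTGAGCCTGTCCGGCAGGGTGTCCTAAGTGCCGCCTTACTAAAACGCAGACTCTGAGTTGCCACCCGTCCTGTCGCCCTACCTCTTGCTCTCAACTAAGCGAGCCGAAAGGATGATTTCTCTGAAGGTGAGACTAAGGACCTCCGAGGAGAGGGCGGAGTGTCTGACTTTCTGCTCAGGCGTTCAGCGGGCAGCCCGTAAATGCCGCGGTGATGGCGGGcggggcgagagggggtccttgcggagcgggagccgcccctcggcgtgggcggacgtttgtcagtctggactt
Hadhb ran from 252.9 over 317.2 to 349.9 CPM in transplant libraries and from 240.1 over 258.3 to 287.2 CPM in empty scaffold libraries, a log2 fold change of 0.23 ± 0.09 that did not pass (adjusted p = 0.0987). Hadha stood at 394.7 ± 57.4 against 397.5 ± 47.6 CPM, or -0.01 ± 0.11. The ratio of Hadhb to Hadha within a library lay above the empty scaffold median of 0.625 in all 6 transplant libraries (0.675 to 1.02), and 1 of them exceeded the highest empty scaffold library (0.82). Whether the log2 fold changes of this pair differ was not tested, and in the length and GC fit they were 0.12 for both Hadhb and Hadha. Of the Hadha counts, 53.3% and 56.5% in the transplant and empty scaffold groups fell on Hadha-201, a transcript annotated without a coding sequence. With coding transcripts alone Hadha stood at 0.09.

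The enzymes that deal with double bonds had positive values in all 3 genes. None was called by edgeR, and DESeq2 called Decr1 (adjusted p = 0.0201) and Eci1 (0.041) higher. Eci1, the enoyl-CoA isomerase, stood at 0.34 ± 0.12 (adjusted p = 0.075), Ech1, the dienoyl-CoA isomerase, at 0.31 ± 0.13 (adjusted p = 0.131) and Decr1, the dienoyl-CoA reductase, at 0.24 ± 0.09 (adjusted p = 0.0812). Decr1 was tight in transplant libraries, from 302.1 over 319.5 to 330.8 CPM, and spread from 231.1 over 270.3 to 318.2 CPM in empty scaffold libraries, 7 of 8 of which lay below every transplant library. Eci1 also had 7 of 8 empty scaffold libraries below every transplant library, with replicate 7 again as the exception. With the title number range in the model all 3 were called higher (adjusted p of 0.0317 for Eci1, 0.04 for Ech1 and 0.0414 for Decr1). In the length and GC fit none of the 3 was called, at 0.17 for Eci1 (adjusted p = 0.159), 0.18 for Ech1 (0.211) and 0.26 for Decr1 (0.115). Nor was any called with the range and the length and GC offset together (0.13, 0.166 and 0.0526).

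None of the 4 peroxisomal genes was called by edgeR. DESeq2 called Acaa1a higher, as did edgeR with the title number range in the model (adjusted p = 0.0412), and the length and GC fit did not (0.114). Acaa1a, a peroxisomal thiolase, ran from 396 over 409.9 to 431.3 CPM in transplant libraries and from 302 over 352.3 to 402 CPM in empty scaffold libraries. The groups met at their edges, with 5 of 6 transplant libraries above every empty scaffold library, and the log2 fold change was 0.25 ± 0.08 (adjusted p = 0.0742). Its paralog Acaa1b, at 2281 ± 197 against 2203 ± 398 CPM, stood at 0.05 ± 0.13. The lead transcripts share 43.8% of the 31-base stretches of Acaa1a with Acaa1b, so counts may be split between them. Their sum stood at 2694 ± 194 against 2552 ± 407 CPM, with a two-sided exact permutation p = 0.435 that stayed at 0.435 after adjustment over 2 family sums. On deposited TPM the log2 ratio of this sum was -0.39 (exact permutation p = 0.042), and on total-count CPM -0.14 (0.128). Ehhadh, the peroxisomal bifunctional enzyme and a classic PPARA target, stood at 0.08 ± 0.16, and Pex11a, a gene of peroxisome division, at 0.22 ± 0.15.

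Among the thioesterases of the list edgeR's main fit called Acot1 higher and did not call Acot2, Acot3 or Acot4. Acot1 (ENSMUSG00000072949) ran from 51.4 over a median of 114.7 to 168.4 CPM in transplant libraries and from 34.68 over 57.69 to 86.93 CPM in empty scaffold libraries. Transplant replicates 1, 2, 3 and 5 lay above every empty scaffold library, while replicate 4 was the lowest of its group and lay below the empty scaffold median. The log2 fold change was 0.92 ± 0.24 (adjusted p = 0.0368), and leaving out each library in turn kept the call in 7 of 14 fits. The length and GC fit gave almost the same size (0.90) and lost the call (adjusted p = 0.0791). Acot2, the mitochondrial isoform, stood at 23.6 ± 2.46 against 25.6 ± 6.14 CPM, at -0.12 ± 0.15. Acot3 and Acot4, peroxisomal isoforms, stood at 0.40 ± 0.21 (adjusted p = 0.204) and 0.22 ± 0.13 (adjusted p = 0.256). Acot4 was called higher in the length and GC fit, at 0.47 (adjusted p = 0.0476). Whether Acot1 changed more than the other isoforms was not tested.

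The Acot genes lie side by side on chromosome 12, and 29.2% of the 31-base stretches of the lead Acot1 transcript also occur in Acot2, 12.0% in Acot3 and 6.29% in Acot4. The sum of Acot1 to Acot6 does not depend on how shared reads were split. This sum was 368 ± 62.3 against 277 ± 52.4 CPM, with a two-sided exact permutation p = 0.0137, or 0.0273 adjusted over 2 family sums. Acot1, called above, is part of the sum. The genes were chosen with earlier results of these data known, so this p is not separate support. In the fit across all genes with families summed the row of Acot1 to Acot6 stood at 0.41 ± 0.13 and did not pass (adjusted p = 0.0649). On total-count CPM the sum's log2 ratio was 0.17 (exact permutation p = 0.309), and on deposited TPM it was 0.10 (0.725). Acot1 made up 16.9% to 48.1% of the family in transplant libraries (median 26.5%) and 16.1% to 28.2% in empty scaffold libraries (median 19.9%).

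Ppara, the receptor gene itself, was not called and had a negative value. Ppara (ENSMUSG00000022383) ran from 45.5 over a median of 49.13 to 105.1 CPM in transplant libraries and from 39.09 over 98.62 to 146 CPM in empty scaffold libraries, at -0.53 ± 0.33 (adjusted p = 0.289). High values came from samples numbered 100 or above in both groups. In empty scaffold libraries with these numbers Ppara lay between 118.9 and 146 CPM, and in those below 100 between 39.09 and 78.35 CPM. In transplant libraries replicates 2 and 3 stood at 105.1 and 97.12 CPM, and the other 4, 1 of them numbered above 100, between 45.5 and 50.67 CPM. With effective lengths as an offset Ppara stood at 0.24. Pdk4, the kinase that shuts pyruvate dehydrogenase during fasting, was the lowest of the 33 per length (mean 1.65 TPM), at 4.21 ± 1.45 against 5.04 ± 1.82 CPM. Vnn1, a pantetheinase, stood at 0.17 ± 0.12 and Aldh3a2, a fatty aldehyde dehydrogenase, at -0.02 ± 0.09. None of these 3 genes was called, by edgeR or DESeq2, and none had an unadjusted p under 0.05.

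None of the 4 ketone body genes was called by edgeR in the main fit. Acat1, the mitochondrial acetoacetyl-CoA thiolase, ran from 642.6 over 690.4 to 863.5 CPM in transplant libraries and from 520.9 over 564.3 to 679.9 CPM in empty scaffold libraries. Of the empty scaffold libraries 7 of 8 lay below every transplant library, and Acat1 had the smallest adjusted p among the genes not called (0.0581, log2 fold change 0.31 ± 0.10). Acat1 was called higher with the title number range in the model (0.0337), in the length and GC fit (0.043) and by DESeq2 (0.0102). Bdh1, the hydroxybutyrate dehydrogenase, stood at 383.5 ± 52.2 against 383.8 ± 62.7 CPM. The monocarboxylate transporters that carry ketone bodies out of cells had negative values. Slc16a6 was near the low end at 3.86 ± 1.01 against 5.62 ± 1.37 CPM (-0.54 ± 0.19, adjusted p = 0.0757), with no transplant library above the empty scaffold median. Slc16a6 was called lower with the title number range in the model (0.0499) and with total-count scaling (0.0218), and not in the length and GC fit (-0.35, adjusted p = 0.279). Slc16a1 stood at -0.18 ± 0.13 (adjusted p = 0.384).

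**Figure D4:**
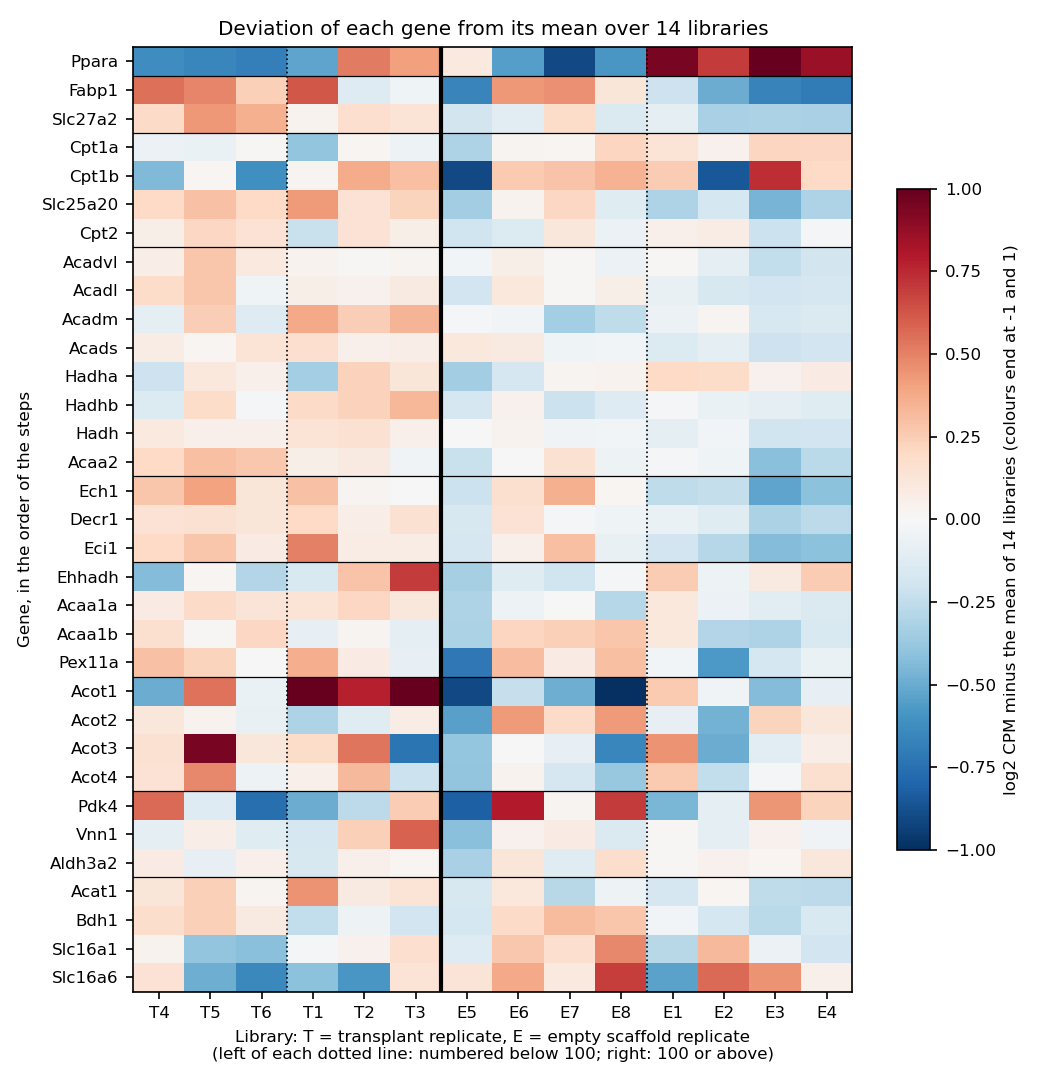
Log2 CPM of each gene minus its mean over the 14 libraries (red above, blue below, colours end at -1 and 1), with genes in the order of the steps and transplant libraries left of the thick line. Each group is split by a dotted line into samples numbered below 100 and 100 or above. Empty scaffold replicate 5 is above the mean in 3 of 33 rows, and the Ppara row is red mainly in samples numbered 100 or above.

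Libraries differed in how many of the 33 genes were above their mean over 14 libraries. The count ran from 19 to 28 in transplant libraries and from 3 to 24 in empty scaffold libraries. Empty scaffold replicate 5 had only 3 genes above the mean and was the lowest of all libraries for 11 genes, and replicates 6 and 7 of the same group had 24 and 20 genes above it. Transplant replicates 1 and 5 were each the highest library for 8 genes. Ppara, Acot1, Pdk4 and Cpt1b varied most between libraries, with SDs of log2 CPM of 0.712, 0.686, 0.521 and 0.501, and Hadh and Acads varied least (0.108 and 0.119). Without empty scaffold replicate 5 the number of the 33 genes called higher was 3, and without replicate 6 or 7 it was 5. The number of all tested genes called higher also moved, from 435 with all libraries to 751, 636 and 974 without replicate 5, 6 and 7.

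The numbers in the sample titles have no stated meaning, with 3 transplant and 4 empty scaffold samples below 100 and the same split at 100 or above. With the group in the model, 3 of the 33 genes were higher at 100 or above, against 12.5% of all tested genes, and 2 were lower, against 10.9%. Ppara stood 1.12 higher on the log2 scale (adjusted p = 0.00296), Acot1 by 0.74 (0.00644) and Ehhadh by 0.41 (0.0237), while Ech1 and Bdh1 stood at -0.32 each (0.0335 and 0.0157). Ppara and Acot1 were thus both higher at 100 or above, while between groups Acot1 rose and Ppara was not called. Within samples numbered 100 or above 9 of the 33 were called higher and Ppara was called lower (-0.68, adjusted p = 0.0409). Among the 13409 genes tested there, 1951 were called higher and 1537 lower, or 26% in either direction. In that range the slope of level on transcript length, described further on, ran from -0.264 to 0.0295 in transplant and from 0.191 to 0.239 in empty scaffold libraries, without overlap, and its part in these calls was not tested. Within samples numbered below 100 none of the 33 was called, at 5 higher and 2 lower with an unadjusted p under 0.05, and DESeq2 was not run there. Only 3 of the 12966 genes tested there (0.0231%) were called.

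The log2 fold change kept its sign in both ranges for Acot1 (0.69 below and 1.06 above), Slc25a20 (0.27 and 0.58), Slc27a2 (0.39 and 0.38) and Ppara (-0.21 and -0.68). Acot3 stood at 0.71 and 0.07, Acot4 at 0.43 and 0.02, and Slc16a1 at -0.45 and 0.09. No difference between ranges passed for any gene. edgeR's interaction test called 0 of 13127 genes, and among the 33 the smallest interaction p was 0.0274 for Slc16a1 (adjusted p = 0.235), the 1 gene with an unadjusted p under 0.05. DESeq2 was not run for the interaction.

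**Figure D5:**
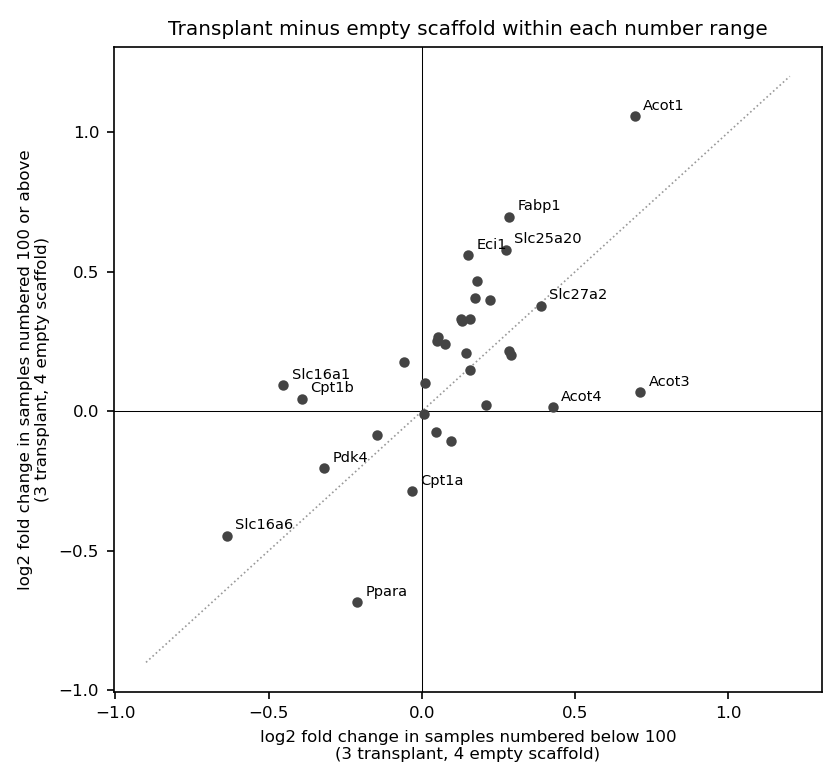
Log2 fold change of each of the 33 genes, transplant minus empty scaffold, in samples numbered below 100 (horizontal) and 100 or above (vertical), with the line of equal values dotted. Acot1, Slc25a20, Slc27a2 and Fabp1 are positive on both axes, Ppara and Slc16a6 negative on both, and Acot3 and Acot4 lie far right near 0 on the vertical axis.

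Of 36 further tested genes of fatty acid oxidation and activation, 4 rose and 1 fell, with a median of 0.12. Over all tested genes 3.31% were called higher and 4.23% lower, with a median of -0.02. Phyh, the peroxisomal phytanoyl-CoA hydroxylase that starts alpha-oxidation, stood at 1934 ± 140 CPM against 1368 ± 185 CPM, with no overlap (0.50 ± 0.11, adjusted p = 0.0186). Eci2, a peroxisomal enoyl-CoA isomerase, at 374 ± 58.7 against 273 ± 22.5 CPM, and Acot8, a peroxisomal thioesterase, at 28.7 ± 4.42 against 21.6 ± 0.870 CPM, did not overlap either (both adjusted p = 0.0216). Over all tested genes 0.571% had every transplant library above every empty scaffold library. Hsd17b10, a mitochondrial short-chain hydroxyacyl-CoA dehydrogenase, rose by 0.71 ± 0.18 on the log2 scale, and Acot6 was lower at 1.6 ± 0.503 against 2.58 ± 0.573 CPM. Leaving out each library in turn kept the calls of Phyh, Eci2 and Acot8 in 12 of 14 fits each, that of Hsd17b10 in 8 and that of Acot6 in 3. In the length and GC fit Hsd17b10 was called (adjusted p = 0.0285), and Phyh, Eci2, Acot8 and Acot6 were not (0.0513, 0.0644, 0.165 and 0.111). That fit also called higher Slc22a5, a carnitine transporter, Mlycd, the malonyl-CoA decarboxylase, and Etfb, a subunit of the electron transfer flavoprotein (0.0352, 0.0399 and 0.0427). The main fit did not call them (0.0943, 0.0816 and 0.0557). Over all 13127 tested genes the length and GC fit called 290 higher and 219 lower. Acsl1, the main liver acyl-CoA synthetase, stood at 0.18 ± 0.17 and did not pass (adjusted p = 0.493).

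Of 6 other ketone body genes none was called by edgeR, with a median of 0.02. Among all tested genes edgeR called 4.23% lower and 3.31% higher. Of 18 regulators and other PPARA targets, 3 fell and none rose in edgeR's test, with a median of -0.02. They were Acaca and Acacb, the carboxylases whose product malonyl-CoA inhibits the CPT1 enzymes, at -0.74 ± 0.18 and -0.59 ± 0.17, and Nr1d1, the clock repressor REV-ERB alpha, at -0.58 ± 0.14 (adjusted p of 0.0297, 0.0426 and 0.0298). In the length and GC fit they stood at -0.43, -0.20 and -0.45 and were not called (0.139, 0.499 and 0.0553), and leaving out each library in turn kept their calls in 8, 5 and 10 of 14 fits. The coactivator gene Ppargc1a stood at -0.30 ± 0.11 (adjusted p = 0.0951) and Fgf21, a PPARA-driven hormone, at 0.03 ± 0.39. The highest value of this list was that of Cyp4a10, a fatty acid omega-hydroxylase named after its values were seen, at 0.78 ± 0.24 (adjusted p = 0.0504). DESeq2 called Cyp4a10 higher (0.0136), as did edgeR with the title number range in the model (0.026). Cyp4a10 was not called in the length and GC fit (0.72, adjusted p = 0.104) or with total-count scaling (0.58, adjusted p = 0.0967). Leaving out each library in turn called Cyp4a10 in 3 of 14 fits. Its relative Cyp4a14 stood at 0.64 ± 0.28 (adjusted p = 0.138).

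The libraries also differed in cell type markers and in RNA length trends, and the part of either in the values above was not tested unless a fit is named. Hepatocyte markers were high throughout, with Alb between 54070 and 96100 CPM, and none of 14 tested was called. Among all tested genes 4.23% were called lower and 3.31% higher. Of 16 macrophage markers 7 were lower and none higher in the transplant group, with summed levels of 185 to 275 against 227 to 582 CPM. Of 10 stellate and fibroblast markers 3 were lower (132 to 258 against 166 to 374 CPM), and of 8 endothelial markers 2 were lower (94.1 to 138 against 124 to 196 CPM). Beside Cpt1b, which stood between 3.89 and 12.2 CPM, muscle markers summed to at most 1.296 CPM, with Myh2 at 0 in 13 of 14 libraries. Mylpf was the 1 muscle marker tested and was called higher (1.21), at a low 0.710 ± 0.117 against 0.308 ± 0.106 CPM. Of 8 fat cell markers Ucp1 was at 0 in 9 libraries and Adipoq reached at most 0.158 CPM, while Cidea, the 1 tested, ran from 1.14 to 81.95 CPM and was not called. The slope of log2 level on log2 transcript length ran from -0.264 to 0.0295 in transplant libraries and from -0.125 to 0.239 in empty scaffold libraries. Among the 33 genes, 18 of 20 under 2500 bases had positive log2 fold changes (median 0.23) and 5 of 13 longer ones (median -0.02). Over all tested genes split at this length, 4266 of 5944 shorter and 1914 of 7183 longer ones were positive (medians 0.16 and -0.15). In the length and GC fit the 20 and 13 listed genes had medians of 0.17 and 0.07, beside 0.04 over all tested genes.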

How the data were processed

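Each library's table lists transcripts with their lengths. Per the file headers it holds an estimated count, not normalized, and a TPM, both as the authors deposited them. The submitters' processing notes name fastp 0.20, kallisto 0.46.1, DESeq2 1.38 and GRCm39, and the options and annotation used were not given there. Transcripts were assigned to genes by GENCODE M21 (120608 of 128803 matched, holding 99.4% to 99.5% of counts), an annotation of GRCm38. Estimated counts were summed per gene, rounded, filtered with filterByExpr, scaled by TMM and tested with edgeR 4.0.16 (robust quasi-likelihood F test, group as the only term, two-sided). Benjamini-Hochberg adjustment ran over all 13127 tested genes, with calls at an adjusted p under 0.05. The alternatives were DESeq2 1.42.0, other scalings, filters and transcript sets, the title number range, effective length, and splines of 4 degrees of freedom on transcript length and GC content. The procedure was tested on simulated counts with known changes, which held no effect of the title number range and no trend with transcript length. All 33 genes are named, and of the other pathway lists up to 6 called genes with the smallest adjusted p, plus Acsl1, Ppargc1a and Fgf21; some further items are not reported here. Genes and lists were chosen with earlier results of these data known. TPM entered only levels per length, the direction of group means and the family sums.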

Additional observations from a re-analysis of the deposited data

Results flagged for a closer look

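In 66 sets of values (33 genes in 2 groups), 4 values stood apart from the rest of their group by Dixon's criterion, which chance meets in about 1 of 20 such sets. Slc27a2 was at 1980 CPM in empty scaffold replicate 7, above the other controls. Cpt1a was at 364 CPM in transplant replicate 1 and at 385.4 CPM in empty scaffold replicate 5, each the lowest of its group. Acadvl was at 638.9 CPM in transplant replicate 5, the highest of its group.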

How the results depend on the processing

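The number of the 33 genes called higher, 3 in all 14 libraries, was 1 without a filter on low counts, 1 with effective lengths as an offset, 9 with the number range as a covariate, 6 with that covariate and the length and GC offset, 9 in samples numbered 100 or above, 0 in samples numbered below 100 and 10 by DESeq2. The count of all tested genes called higher, 435 of 13127 in all 14 libraries, moved too. It was 282 of 24970 without the filter, 136 with effective lengths and 1388 with the range covariate. The length and GC offset alone gave 4 of the 33 and 290 of all tested genes, and with the covariate 641 of all tested genes. DESeq2 gave 1032. Samples numbered 100 or above gave 1951 of 13409, and those below 100 gave 2 of 12966. With total-count scaling the number of the 33 called higher was 0, and 1 with Mup genes left out first. Both scalings were added after the data were seen. Leaving out 1 library gave 0 to 5 of the 33 called higher, with 0 without transplant replicate 1, 3 or 5 or empty scaffold replicate 3, 4 or 8. Calls among all tested genes fell with it, from 990 to 138, 404, 200, 263, 240 and 296 in these fits in turn. The number called lower, 0 in all libraries, was 1 with the range covariate, 1 in samples numbered 100 or above, 2 with total-count scaling, 1 with Mup genes left out, and 0 to 1 on leaving out 1 library. The cause was not tested. The log2 ratio of the Acot1 to Acot6 sum, 0.41, was 0.10 on deposited TPM and 0.17 on total-count CPM, and that of Acaa1a with Acaa1b, 0.08, was -0.39 and -0.14.

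Of 984 values of single genes under alternatives, 860 kept direction and call, 38 lost a call, 34 gained one and 52 in 17 genes changed sign, 0 of them called. Total-count scaling, and then leaving out Mup genes first, gave -0.11 and -0.063 for Cpt2, -0.076 and -0.027 for Acadvl, -0.053 and -0.0048 for Acadl, -0.080 and -0.030 for Acads, -0.069 and -0.020 for Hadh, -0.15 and -0.10 for Ehhadh, -0.17 and -0.12 for Acaa1b and -0.052 and -0.0047 for Vnn1. Total-count scaling alone gave -0.0052 for Pex11a and -0.028 for Acot4. The length and GC offset gave 0.072 for Cpt1a (0.072 with the range covariate too), 0.0019 for Cpt1b, 0.12 for Hadha (0.13 with the covariate) and 0.059 for Aldh3a2 (0.058). Samples numbered below 100 gave 0.095 for Hadha, -0.059 for Ehhadh, 0.046 for Aldh3a2 and 0.0061 for Bdh1, and samples numbered 100 or above 0.045 for Cpt1b and 0.094 for Slc16a1. Coding transcripts alone gave 0.094 for Hadha and 0.023 for Bdh1, and an effective length offset 0.24 for Ppara. RLE factors and DESeq2 gave 0.0046 and 0.0045 for Hadha and 0.013 each for Bdh1. Leaving out 1 library gave -0.058 to 0.046 for Hadha, -0.091 to 0.15 for Ehhadh, -0.058 to 0.010 for Aldh3a2 and -0.054 to 0.047 for Bdh1. No paired analysis was possible because the groups share no number in the titles.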
